A study of Mus musculus with 10 samples.

Results

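The comparison set 3 arrays of hypoxic wild-type mouse hepatocytes, the main metabolic cells of the liver, against the 4 normoxic arrays pooled, 7 of the 10 arrays in all. The members were chosen by sample title: 3 hypoxic adeno-treated arrays, numbered 1 to 3, 2 normoxic untreated arrays and 2 normoxic adeno-treated arrays, each pair numbered 1 and 2. Total RNA was hybridised to arrays that carry 12488 probe sets, each a set of short probes for one transcript, and the deposited values are scaled intensities on a linear scale. The other 3 arrays, of hypoxic HIF-1alpha null cells, were not part of the difference itself. They entered the estimate of the spread, the filter on dim values, the offset added before taking log2 and the replicate block fit below. The hypoxic wild-type cells were all adeno-treated, so a difference from the untreated arrays also holds whatever the adeno treatment did. The adeno agent, the oxygen level, the time in hypoxia, the mouse strain and age and the genotype of the normoxic cells were not stated in the labels. Nor do these say whether the arrays came from separate cultures, so the p-values measure only the spread between these samples, which may be technical.

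When oxygen falls, prolyl hydroxylases that use oxygen as a substrate stop marking the HIF-alpha proteins for degradation. HIF-alpha then pairs with ARNT and binds short hypoxia response elements in DNA, which raises transcription of genes for glucose uptake, glycolysis, blood vessel growth and collagen hydroxylation. Control of HIF-1alpha is largely on the protein, so its mRNA need not move, and in liver low oxygen is also known to shift glucose and amino acid metabolism.

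The arrays had been scaled alike, with medians of 60 to 70.9 over all 10. The cultures held hepatocyte transcripts, with all 6 hepatocyte markers on the array passing the filter on dim values. Their summed level was 21477, 27990 and 33719 on hypoxic arrays 1, 2 and 3 and 23788 to 36567 on the normoxic arrays. The cultures also held transcripts of other liver cells. Of 16 stellate cell and fibroblast markers on the array 15 passed the filter, and their summed level was 18576, 13583 and 6103 on hypoxic arrays 1, 2 and 3, against 9638 to 11372 in normoxia. The 5 biliary markers summed to 5199, 3282 and 1858, against 2874 to 4296. Hypoxic array 3 was thus the lowest of the 7 for both lists and hypoxic array 1 the highest. Macrophage markers (9 of 14 passed) summed to 1704, 1243 and 930.4 on hypoxic arrays 1, 2 and 3 and 958.0 to 1494 in normoxia. Endothelial markers (4 of 11 passed) summed to 1603, 937.9 and 636.8, against 803.7 to 1225. For these lists too hypoxic array 3 was the lowest of the 7 and hypoxic array 1 the highest. Lymphocyte and erythroid markers summed to at most 374.2 and 165.0 on any of the 7 arrays. The 18S control probe sets also stood highest on hypoxic array 3, at 12.33 on the log2 scale, against 8.97 and 7.38 on hypoxic arrays 1 and 2 and 5.98 to 10.25 in normoxia. In such bulk RNA, fewer cells of a type and less RNA per cell cannot be told apart.

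Hypoxic wild-type cells carried more mRNA for adrenomedullin, the glucose transporter GLUT1, hexokinase 2, vascular growth factors, and early response and stress transcription factors. In limma, 35 of 7453 probe sets (0.47%) were called higher in hypoxia, for 31 named genes, and 7 (0.0939%) were called lower, for 6 named genes. A call here is an adjusted p below 0.05 after Benjamini-Hochberg adjustment over the 7453. At an unadjusted p below 0.05 the counts were 357 higher (4.79%) and 409 lower (5.49%). The median difference over all 7453 was -0.0157 on the log2 scale. All 42 called probe sets kept the 3 hypoxic arrays clear of the 4 normoxic ones, against 5.22% of all tested probe sets that did so upward and 5.64% downward. A call made from these same arrays selects for such separation. The lack of overlap, here and for single genes below, thus describes the calls and adds no support. The differences of the 42 ran in size from 0.773 to 4.62 on the log2 scale.

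The sample numbers were taken, as an assumption, to pair the arrays. A fit with the number as a replicate block called 226 probe sets higher (3.03%) and 229 lower (3.07%), all 42 among them. The block counts were smaller with fewer arrays: leaving out any one of the 7 gave 59 to 151 higher and 38 to 113 lower. Without hypoxic array 2 the block fit called 59 higher and 38 lower, without the null arrays 98 higher and 73 lower, and without hypoxic array 3 it called 130 higher and 104 lower. Since no normoxic array is numbered 3, hypoxic array 3 enters the block fit only through the null arrays. Of the 455 probe sets (6.1%) called with the block, 220 kept hypoxic and normoxic arrays apart.

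**Figure D1:**
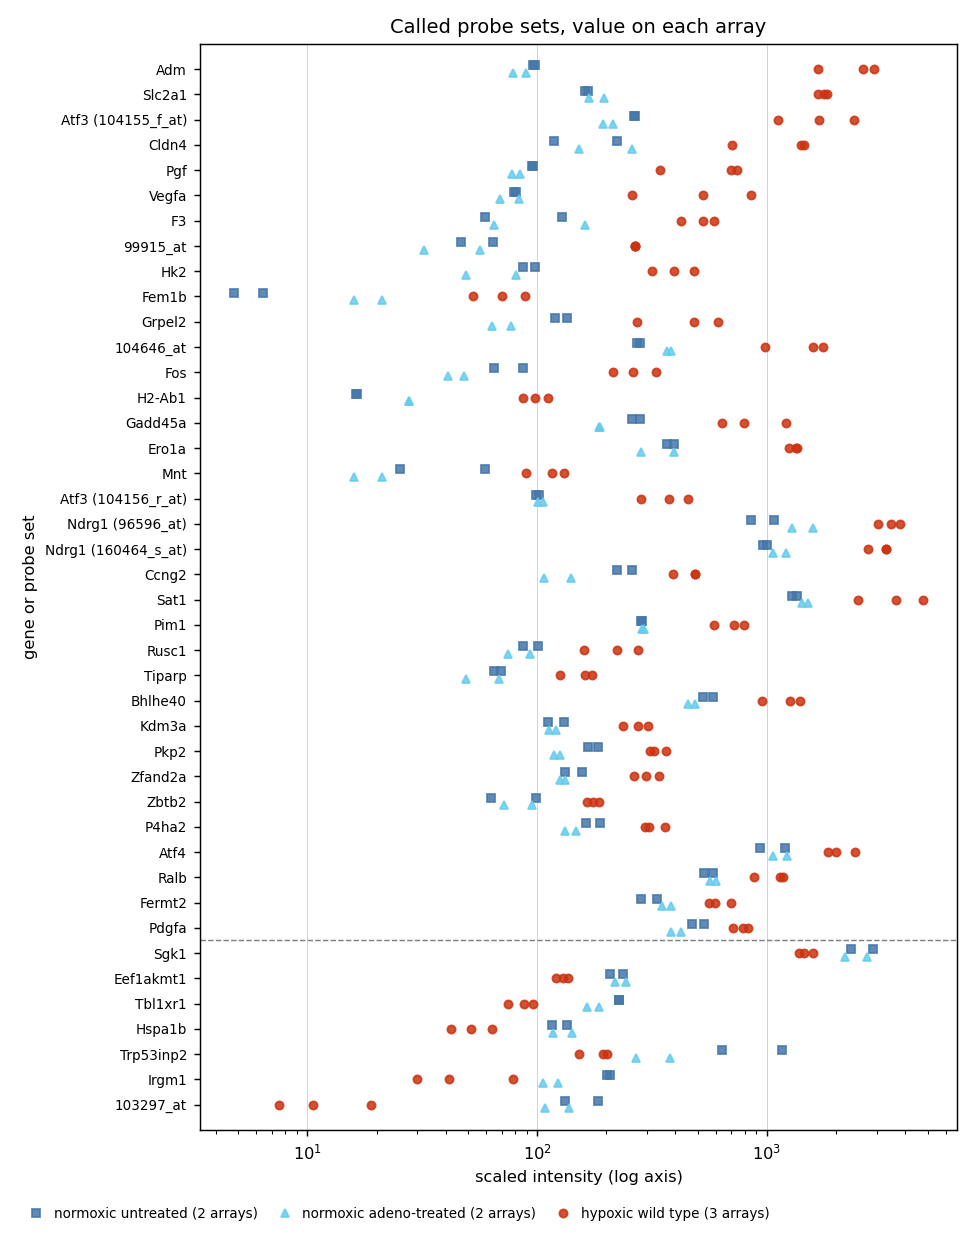
Scaled intensity (x axis, log scale) of each of the 42 called probe sets (y axis) on each of the 7 arrays, with squares for normoxic untreated, triangles for normoxic adeno-treated and circles for hypoxic wild-type arrays. Above the dashed line stand the 35 higher in hypoxia and below it the 7 lower, and in no row do the circles mix with the other symbols.

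Among HIF target genes outside glycolysis, 8 of 30 tested genes rose and none fell, with a median log2 difference of 0.705 against -0.0199 over all 5689 tested genes. In this list 27 of 30 differences were positive, against 47.2% of all genes. Over all tested probe sets 0.47% were called higher. This and the other gene lists were written with earlier results of these data known, so their counts and medians describe the members and add no support. Adm, which encodes the vasodilator peptide adrenomedullin, read 97.5 and 96.3 on the untreated arrays, 78.7 and 89.7 on the adeno-treated arrays and 1662, 2612 and 2928 on hypoxic arrays 1, 2 and 3. Every hypoxic value was far above every normoxic one. The means were 2401 ± 659 (SD, n = 3) and 90.5 ± 8.61 (SD, n = 4), a 24.6-fold rise (log2 4.62, SE 0.24, limma adjusted p = 1.22e-05), with folds taken on the value plus an offset of 4.7. The difference was 4.72 from the adeno-treated and 4.52 from the untreated arrays.

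Pgf and Vegfa, growth factors for blood vessels, rose with a wide spread among the hypoxic arrays. Pgf read 96.3 and 94.9 untreated, 84.5 and 77.8 adeno-treated and 700.5, 738.9 and 342.3 in hypoxia (log2 2.61, SE 0.36, limma adjusted p = 0.0098). Its lowest hypoxic array was number 3. Vegfa read 79.4 and 81.1 untreated, 83.0 and 69.2 adeno-treated and 257.9, 525.7 and 849.7 in hypoxia (log2 2.57, SE 0.45, limma adjusted p = 0.0419), with number 3 the highest. The groups did not overlap for either gene. The Vegfa call was kept in only 1 of the 7 fits that left out an array, with adjusted p up to 0.186, and was lost without the filter on dim values (0.061) and without the intensity trend of the variance (0.0586).

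Ero1a and P4ha2 were each called on 1 of their 2 tested probe sets. Ero1a, the oxidase that passes disulfide bonds to proteins folding in the endoplasmic reticulum, read 368.6 and 395.6 untreated, 394.5 and 282.5 adeno-treated and 1354, 1340 and 1249 in hypoxia. The hypoxic arrays lay close together and well above the rest (log2 1.87, SE 0.20, limma adjusted p = 0.00228). A second probe set of Ero1a differed by 1.20 and was not called (adjusted p = 0.201). P4ha2, a subunit of the collagen prolyl hydroxylase, read 295.3 to 360.8 in hypoxia and 131.8 to 188.3 in normoxia (log2 1.01, limma adjusted p = 0.0358), and its second probe set differed by 0.64 (adjusted p = 0.218).

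Ndrg1, a stress-responsive gene, rose by 1.55 on each of its probe sets, from 963.8 to 1212 in normoxia to 2751 to 3311 in hypoxia on the first and from 848.8 to 1585 to 3042 to 3794 on the second (limma adjusted p = 0.00219 and 0.00392). Kdm3a, an oxygen-dependent histone demethylase, read 111.9 to 131.0 in normoxia and 236.0 to 303.7 in hypoxia (log2 1.15, limma adjusted p = 0.0204). Bhlhe40, a transcriptional repressor that also feeds into the circadian clock, read 453.3 to 582.7 and 955.2 to 1396 (log2 1.21, limma adjusted p = 0.0095). Neither gene overlapped between hypoxia and normoxia. With the block, 15 genes of the HIF target list were higher and 2 lower, at a median of 0.716, against 3.03% and 3.07% of all probe sets tested. Those added upward include Hmox1, the heme-degrading oxygenase, and Egln1, and the lower ones are Plin2, a lipid droplet coat protein, and Angptl4, an inhibitor of lipoprotein lipase. Bnip3, a mitophagy receptor and classical HIF target, was called in neither fit: it read 431.3 and 704.1 untreated, 324.6 and 587.0 adeno-treated and 883.9, 963.7 and 653.7 in hypoxia, with overlap (log2 0.74, limma adjusted p = 0.581; with the block 0.165).

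Egln1, an oxygen-dependent hydroxylase by which HIF-alpha is marked for removal, missed the threshold although its groups did not overlap. It read 257.3 and 382.4 untreated, 307.8 and 380.7 adeno-treated and 674.4, 710.9 and 724.0 in hypoxia (log2 1.09, limma adjusted p = 0.0613; with the block 0.97, adjusted p = 0.00856). Of the 10 tested HIF subunits and oxygen sensors none was called, at a median of 0.0215. The related hydroxylase gene Egln2 differed by -0.55 (adjusted p = 0.294). The HIF subunit genes themselves showed no call: Hif1a differed by 0.19 and 0.11 on its probe sets, Arnt by 0.66 and Epas1 by -0.02, with limma adjusted p of 0.493 to 0.994. Hif1a and Epas1 changed sign when single arrays were left out. Epo, the erythropoietin gene, read 24.6 to 45.7 in normoxia and 35.0 to 80.9 in hypoxia, with overlap (log2 0.36, adjusted p = 0.775).

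Slc2a1 and Hk2, for the uptake of glucose and its first phosphorylation, were the glycolysis genes called without the block. Slc2a1, the glucose transporter GLUT1, read 165.7 and 161.3 untreated, 168.8 and 195.2 adeno-treated and 1772, 1823 and 1666 in hypoxia. Both sets of arrays were tight, 1754 ± 79.9 (SD, n = 3) against 173 ± 15.3 (SD, n = 4), a 9.93-fold rise (log2 3.31, SE 0.17, limma adjusted p = 1.22e-05). Hk2, the hexokinase that traps glucose in the cell, read 97.9 and 86.8 untreated, 81.3 and 49.0 adeno-treated and 479.7, 317.2 and 393.3 in hypoxia. No array overlapped (4.88-fold, log2 2.29, SE 0.22, limma adjusted p = 0.00149).

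They were 2 of 21 tested genes of glucose uptake and glycolysis, at a list median of 0.332, and 20 of the 21 differences were positive. The share called higher among all probe sets tested was 0.47%. Pfkp, the platelet-type phosphofructokinase, read 166.7 to 234.1 in normoxia and 372.8 to 461.6 in hypoxia (log2 1.06, limma adjusted p = 0.0727; with the block 0.96, adjusted p = 0.0153). Pgk1, phosphoglycerate kinase, read 3139 to 3849 in normoxia and 2858 to 4328 in hypoxia (log2 0.02, adjusted p = 0.991), with overlap and a sign that turned after quantile normalization (-0.02). Ldha, which makes lactate, read 5107 to 6529 and 6054 to 7319 (log2 0.17, adjusted p = 0.714). Both genes are textbook HIF targets. With the block 5 genes of the list were called higher, Pfkl and Pkm besides Slc2a1, Hk2 and Pfkp, against 3.03% of all probe sets tested. Gys1, the glycogen synthase of muscle and other tissues, read 281.9 to 350.8 in normoxia and 1050, 873.5 and 509.2 on hypoxic arrays 1, 2 and 3 (log2 1.32, limma adjusted p = 0.0599; with the block 1.55, adjusted p = 6.82e-04). It was the one gene of 10 in glycogen metabolism called with the block, and none was called without it.

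The letters of the hypoxia response element core, ACGTG or GCGTG on either strand (CACGT or CACGC when read on the other), were sought in the 250 bases before the gene start in RefSeq's promoter table for GRCm38.p6. ACGTG lies inside the E-box CACGTG, so some matches are E-boxes. Of the 31 risen genes 26 had an entry and 17 of these (65.4%) held the core, against 57.6% of the 4600 tested genes with an entry and 38.6% of all 27025 genes of the table. The share in risen genes was thus near that of the tested genes. Of the 6 fallen genes 5 had an entry and 0 held the core. The sequences of the 5 risen genes of the HIF target and glycolysis lists with more than 1 match are shown for the placement of these letters, 5′ to 3′ on the strand of the gene, ending at the base before its start, with the matches in capitals.
Adm (chr7:110627407-110627656, + strand): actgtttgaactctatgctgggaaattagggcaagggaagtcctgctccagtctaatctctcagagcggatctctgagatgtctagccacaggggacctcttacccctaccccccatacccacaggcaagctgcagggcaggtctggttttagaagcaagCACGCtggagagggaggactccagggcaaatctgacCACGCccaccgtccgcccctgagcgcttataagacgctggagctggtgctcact
Slc2a1 (chr4:119108495-119108744, + strand): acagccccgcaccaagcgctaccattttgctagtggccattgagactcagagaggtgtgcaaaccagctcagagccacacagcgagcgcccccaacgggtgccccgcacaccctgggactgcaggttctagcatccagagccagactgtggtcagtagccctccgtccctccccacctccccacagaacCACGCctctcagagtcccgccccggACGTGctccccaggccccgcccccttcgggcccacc
Hk2 (chr6:82774455-82774704, - strand): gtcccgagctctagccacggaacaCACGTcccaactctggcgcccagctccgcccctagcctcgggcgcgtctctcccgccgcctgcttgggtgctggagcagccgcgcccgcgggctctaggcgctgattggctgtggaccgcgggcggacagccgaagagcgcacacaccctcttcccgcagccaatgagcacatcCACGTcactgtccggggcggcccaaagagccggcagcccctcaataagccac
Ero1a (chr14:45318573-45318822, - strand): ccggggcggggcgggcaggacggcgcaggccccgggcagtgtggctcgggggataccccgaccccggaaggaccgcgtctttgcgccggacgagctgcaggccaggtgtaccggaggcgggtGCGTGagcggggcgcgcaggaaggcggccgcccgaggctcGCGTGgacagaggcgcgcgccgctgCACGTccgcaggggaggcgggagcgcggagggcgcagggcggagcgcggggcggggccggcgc
P4ha2 (chr11:54100674-54100923, + strand): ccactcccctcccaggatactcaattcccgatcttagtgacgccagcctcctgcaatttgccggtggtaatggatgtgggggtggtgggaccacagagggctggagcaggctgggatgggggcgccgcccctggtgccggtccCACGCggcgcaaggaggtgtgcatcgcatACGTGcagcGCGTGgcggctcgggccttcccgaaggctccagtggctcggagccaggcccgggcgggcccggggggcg
The matches begin 90 and 54 bases before the start in Adm, 61 and 36 in Slc2a1, 226 and 52 in Hk2, 128, 88 and 63 in Ero1a and 107, 78 and 69 in P4ha2. Of other risen genes of the HIF target list, Vegfa had 0 matches and Pgf and Kdm3a 1 each. Outside the HIF target and glycolysis lists, Ralb had 5 and Atf4 3, while F3 and Pim1 had 0. The median share of G and C was 65.8% in the risen genes and 60% in the tested genes. A match is a run of letters and not a measured binding site, and the deposited values hold no binding data.

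Early response and stress regulators rose next to the metabolic genes. Of 21 immediate early genes, which are induced within minutes of many stimuli, 2 rose and none fell, at a median of 0.36. The shares called among all probe sets tested were 0.47% higher and 0.0939% lower. Atf3, a stress-induced transcription factor, read 263.8 and 267.7 untreated, 213.0 and 192.8 adeno-treated and 1120, 1694 and 2398 in hypoxia (7.02-fold, log2 2.81, SE 0.26, limma adjusted p = 0.00149). Its second probe set rose by 1.79 (adjusted p = 0.00392), and on both probe sets every hypoxic array was above every normoxic one. Fos, which pairs with JUN proteins to form AP-1, read 86.9 and 65.2 untreated, 48.0 and 41.1 adeno-treated and 212.9, 329.8 and 261.2 in hypoxia (log2 2.10, SE 0.26, limma adjusted p = 0.00565). With the block 9 members of the list were higher and none lower, against 3.03% and 3.07% of all probe sets tested. They include Myc, the growth-promoting transcription factor (0.81 without the block, adjusted p = 0.138, and 0.0277 with it), and Dusp1, a phosphatase that turns off MAP kinases (0.73, adjusted p = 0.128, and 0.0150 with it).

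Of 22 tested members of the integrated stress and unfolded protein responses 3 rose and none fell, at a median of 0.0866. Among all probe sets tested 0.47% were called higher and 0.0939% lower. The risen members were Ero1a, Atf3 and Atf4, and Atf3 is counted in the early gene list too. Atf4, the factor whose translation rises when protein synthesis is throttled, read 933.7 to 1227 in normoxia and 1847 to 2426 in hypoxia (log2 0.92, SE 0.16, limma adjusted p = 0.0472). Ddit3, the CHOP factor downstream of Atf4, was the only named gene called against one kind of control and not against the pooled arrays. It read 216.6 and 156.5 untreated, 108.3 and 63.2 adeno-treated and 303.4, 341.1 and 253.0 in hypoxia. The difference was 1.78 from the adeno-treated arrays (limma adjusted p = 0.0255), 0.68 from the untreated (0.377) and 1.23 from all 4 (0.0511).

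Growth arrest genes were among the rises. Gadd45a, a gene of the DNA damage response, read 257.9 and 280.6 untreated, 186.6 and 186.9 adeno-treated and 639.2, 796.7 and 1209 in hypoxia (log2 1.90, SE 0.26, limma adjusted p = 0.0101). Ccng2, the atypical cyclin linked to cell cycle arrest, read 258.3 and 223.7 untreated, 139.7 and 107.0 adeno-treated and 389.0, 488.4 and 485.6 in hypoxia (log2 1.37, SE 0.18, limma adjusted p = 0.00911). These were 2 of 13 tested p53 target and growth arrest genes, at a median of 0.294. The share called higher among all probe sets tested was 0.47%. Cdkn1a, the cell cycle inhibitor p21, read 201.4 to 913.2 in normoxia and 919.4 to 2192 in hypoxia, with a narrow margin between them (log2 1.62, limma adjusted p = 0.104; with the block 1.45, adjusted p = 0.0356). Its adeno-treated arrays, 913.2 and 760.2, lay near the lowest hypoxic array. Mnt, a repressor that competes with MYC for its partner MAX, read 25.2 and 59.1 untreated, 21.2 and 15.9 adeno-treated and 130.7, 89.7 and 116.0 in hypoxia (log2 1.86, or 1.47 to 1.95 with other offsets, limma adjusted p = 0.0150), the one call among 7 genes of the MYC network. The normoxic mean of Mnt, 30.4, was below the mean that the filter on dim values asked for. Mnt was thus tested only through its hypoxic arrays, and the size of its difference is not firm.

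Further regulators rose. Pim1, a survival kinase, read 283.0 to 292.9 in normoxia and 591.3 to 796.9 in hypoxia (log2 1.27, SE 0.15, limma adjusted p = 0.00511), and its dimmer second probe set differed by 1.87 (adjusted p = 0.0571). Sat1, which starts the breakdown of polyamines, read 1290 to 1509 and 2495, 3647 and 4779 (log2 1.34, limma adjusted p = 0.0310). Tiparp, a mono-ADP-ribosyltransferase, differed by 1.22, and Zfand2a, an arsenite-inducible zinc finger protein, by 1.10 (limma adjusted p = 0.0158 and 0.0117). The zinc finger gene Zbtb2 rose by 1.07 (0.0488) and Rusc1, which encodes an adaptor protein, by 1.24 (0.0476). The Rusc1 call was lost under quantile normalization (0.0575) and median centring (0.0541) and the Zbtb2 call under median centring (0.063), and both were lost without the filter (0.0804 and 0.0876) and without the intensity trend (0.0621 and 0.0602). For all of these the 3 hypoxic arrays stood above the 4 normoxic ones. Bhlhe40 was the one call among 12 genes of the circadian clock, whose median was 0.22. The share called higher among all probe sets tested was 0.47%. The clock repressors Nr1d1 (0.94, limma adjusted p = 0.0860) and Nfil3 (0.93, 0.157) were called only with the block (0.0190 and 0.00695).

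Of 17 tested epithelial junction genes 2 rose and none fell, at a median of 0.131. Among all probe sets tested 0.47% were called higher and 0.0939% lower. Cldn4, a tight junction claudin, read 222.3 and 118.2 untreated, 258.1 and 152.2 adeno-treated and 1409, 1454 and 701.3 in hypoxia (6.15-fold, log2 2.62, SE 0.33, limma adjusted p = 0.00585). Pkp2, a plakophilin of desmosomes, read 118.0 to 183.2 in normoxia and 310.7 to 362.3 in hypoxia (log2 1.15, limma adjusted p = 0.0071), and its brighter second probe set differed by 0.66 (adjusted p = 0.198). For Cldn4 the lowest hypoxic array was number 3, the one lowest for the biliary and stellate cell markers, and the part of cell mixture in its rise was not tested. Within number 1 the difference of Cldn4 was 2.53 and within number 2 it was 3.39.

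F3, tissue factor, which starts clotting, read 127.9 and 59.1 untreated, 161.2 and 64.8 adeno-treated and 529.4, 589.4 and 422.2 in hypoxia (log2 2.37, SE 0.40, limma adjusted p = 0.0345). This call was lost without the filter (0.0503) and without the intensity trend (0.0547), and was kept in 2 of the 7 fits that left out an array, with adjusted p up to 0.170. In both kinds of control its number 1 array read higher than its number 2 array, and all stayed below the hypoxic arrays. Fermt2, the integrin activator kindlin-2, rose by 0.87 (limma adjusted p = 0.0358), Ralb, a small GTPase, by 0.89 (0.0318) and Pdgfa, a growth factor for mesenchymal cells, by 0.78 (0.0472). None of these 3 overlapped between hypoxia and normoxia.

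Some rises started from dim values. The filter asked for a mean of 40.1 over all arrays, and for H2-Ab1 and Fem1b every normoxic value lay below it, so both were tested only through their hypoxic arrays and the size of their difference is not firm. H2-Ab1, a class II antigen-presenting chain, read 16.5 and 16.3 untreated, 27.8 and 27.7 adeno-treated and 98.1, 87.0 and 111.5 in hypoxia (log2 1.98, or 1.53 to 2.08 with other offsets, limma adjusted p = 0.00511). It was the one call among 18 interferon response and antigen presentation genes, whose median was 0.0367. The share called higher among all probe sets tested was 0.47%. Fem1b, a substrate receptor of a ubiquitin ligase, read 6.4 and 4.8 untreated, 15.9 and 21.1 adeno-treated and 52.8, 70.1 and 88.7 in hypoxia (log2 2.26, or 1.55 to 2.48 with other offsets, limma adjusted p = 0.00615), its lowest values near the offset of 4.7 itself. Grpel2, a cofactor of the mitochondrial HSP70 chaperone, read 134.7 and 119.0 untreated, 63.7 and 76.8 adeno-treated and 271.0, 480.1 and 610.6 in hypoxia (log2 2.13, limma adjusted p = 0.0101). A pair of probe sets without a gene symbol in the platform's table rose as well, 99915_at from 32.1 to 64.2 in normoxia to 265.9 to 267.8 in hypoxia (log2 2.35, limma adjusted p = 8.8e-04) and 104646_at from 271.8 to 381.6 to 978.6 to 1746 (log2 2.10, 0.00149).

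The calls downward were few. The probe set 103297_at, again without a symbol, read 131.9 and 183.7 untreated, 137.6 and 108.2 adeno-treated and 10.6, 7.5 and 19.0 in hypoxia (log2 -3.12, limma adjusted p = 0.00176). Its hypoxic values lay below 40.1 and near the offset, and the size of the difference was -2.35 to -3.33 with other offsets. Irgm1, an interferon-induced GTPase, read 207.2 and 200.4 untreated, 123.1 and 106.3 adeno-treated and 78.5, 29.9 and 41.3 in hypoxia (log2 -1.63, limma adjusted p = 0.0476). The Irgm1 call was lost after quantile normalization (0.0577), without the filter (0.0823) and without the intensity trend (0.057), and was kept in 1 of the 7 fits that left out an array. Trp53inp2, a regulator of autophagy, read 635.3 and 1164 untreated, 270.6 and 377.8 adeno-treated and 192.7, 202.3 and 151.9 in hypoxia (log2 -1.51, limma adjusted p = 0.0235). The hypoxic arrays were lowest in each case, and for the last pair of genes the adeno-treated arrays lay between.

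Hspa1b, an inducible HSP70 chaperone, read 134.6 and 115.7 untreated, 141.6 and 116.8 adeno-treated and 51.4, 63.7 and 42.1 in hypoxia (2.33-fold lower, log2 -1.22, SE 0.20, limma adjusted p = 0.0275). Near-identical copies of this gene could share its probes. Tbl1xr1, a corepressor subunit, fell by 1.18 on the log2 scale (limma adjusted p = 0.0135), Eef1akmt1, a methyltransferase of an elongation factor, by 0.79 (0.0488) and Sgk1, a kinase induced by serum and glucocorticoid, by 0.77 (0.0472). Sgk1 read 2181 to 2903 in normoxia and 1375 to 1588 in hypoxia, with no overlap. Of 15 heat shock chaperone genes 1 rose, Grpel2, and 1 fell, Hspa1b, at a median of -0.116. With the block the median was -0.392 and 4 were lower, among them Hsph1, a cochaperone of HSP70 (-0.75 without the block, limma adjusted p = 0.189, and 0.0094 with it), and the constitutive chaperone Hspa8 (-0.41, 0.274, and 0.0365 with it). Over all tested probe sets 3.07% were lower with the block, and 0.47% were higher and 0.0939% lower without it.

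**Figure D2:**
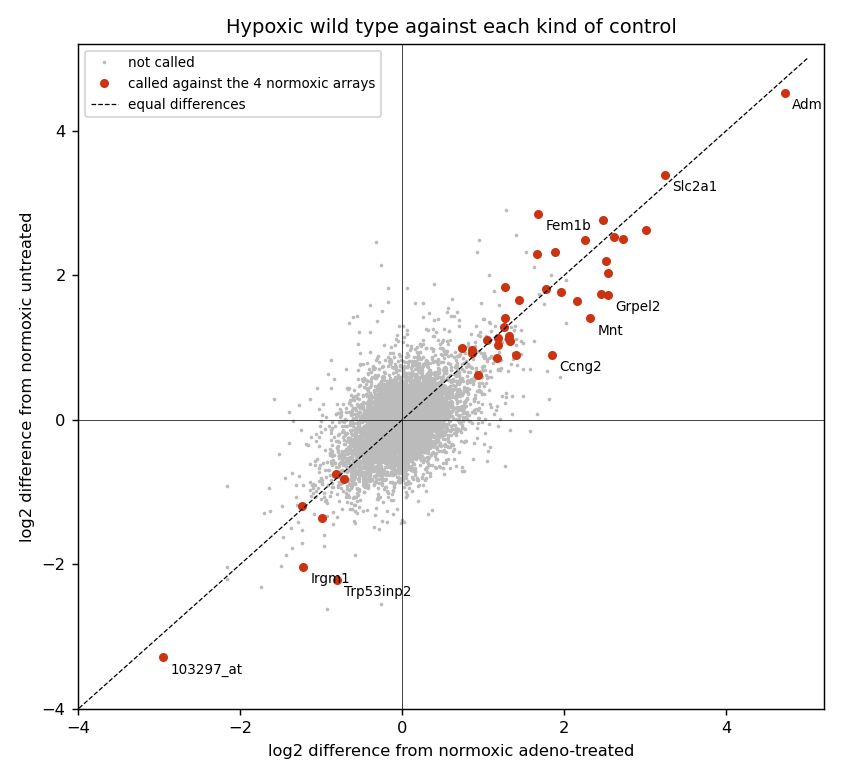
Log2 difference of hypoxic wild type from the adeno-treated normoxic arrays (x axis) and from the untreated ones (y axis) for each of 7453 probe sets, with the 42 called against the 4 pooled arrays in red. Both axes share the hypoxic arrays, so points follow the dashed line of equal differences in part by construction. Trp53inp2, Fem1b, Ccng2, Mnt, Grpel2 and Irgm1 lie farthest from that line among the 42.

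Both kinds of normoxic control agreed in direction for all 42 called probe sets, and each difference was past 1.5-fold. Over all 7453, 2.51% were higher and 2.54% lower past 1.5-fold against both controls, while 29.6% were higher and 33.4% lower by sign alone and 37% had opposite signs. The comparisons share the hypoxic arrays, and a call against the pooled arrays selects for agreement, so the count describes the calls and adds no support. The difference was larger from the adeno-treated arrays for 22 and from the untreated for 20. For 30 of the 42 the gap between the differences was within 0.5, with a median gap of 0.248 on the log2 scale. On their own, the adeno-treated controls gave 24 higher (0.322%) and 1 lower (0.0134%), and the untreated controls 14 higher (0.188%) and 3 lower (0.0403%). Of the 42, 14 were called against each control alone, among them Adm, Slc2a1, Hk2 and Ero1a, and 15 against neither, among them Vegfa, F3 and Hspa1b.

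The 6 calls with the widest gap were these. For Ccng2 (1.85 from adeno-treated, 0.90 from untreated), Mnt (2.32 and 1.40) and Grpel2 (2.54 and 1.73) the adeno-treated arrays read lower than the untreated ones. Fem1b (1.68 and 2.85) read higher there, but all 4 of its control values were below 40.1, which leaves this gap without a firm size. Trp53inp2 (-0.81 and -2.22) and Irgm1 (-1.22 and -2.03) also lay nearer to hypoxia on the adeno-treated arrays. The gap of Mnt is not firm either, since its control values of 25.2, 21.2 and 15.9 were below 40.1 and only 59.1 was above. The direct test of adeno-treated against untreated arrays called 0 of 7453 in limma, with 619 (8.31%) at an unadjusted p below 0.05 and 18 (0.242%) called with the block. For the 6 genes its adjusted p was 0.494 to 0.636. A fit that both merged the 4 normoxic arrays into a single group and left out the null arrays kept 31 of the 42 calls. It ended the calls of Ccng2 (limma adjusted p = 0.0983), Mnt (0.0848), Fem1b (0.0672), Irgm1 (0.0983) and Trp53inp2 (0.215), and also those of Eef1akmt1 (0.0749), Sgk1 (0.0827), Zbtb2 (0.0612), Pdgfa (0.0951), Fermt2 (0.0668) and Atf4 (0.05), whose controls lay closer together. Which of the changes ended each call was not tested.

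Opposite directions past 1.5-fold against each control were seen for 11 probe sets (0.148%), and none was called in either the pooled comparison or the control comparison. Psap, the precursor of the saposins, differed by -0.61 from adeno-treated and 1.42 from untreated arrays. Hipk2, a kinase that acts on p53, differed by 1.26 and -0.64. The others were Ell2, Zfp871, Rhoq, Zfp36l1, Bag6, Smyd5, Thrap3, Ccni and Cotl1, with pooled adjusted p of 0.823 and above in limma.

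Liver metabolism showed no call in the fit without the block. Of 24 tested genes of the urea cycle and amino acid breakdown none was called and 6 differences were positive, at a median of -0.211. With the block 9 were lower and none higher, at a median of -0.451, against 3.07% lower and 3.03% higher of all probe sets tested. Tat, which breaks down tyrosine, read 3778 and 4380 untreated, 3928 and 5051 adeno-treated and 1303, 2315 and 4502 on hypoxic arrays 1, 2 and 3 (log2 -0.83, limma adjusted p = 0.597; with the block -1.31, adjusted p = 4.71e-04). Its hypoxic array 3 lay among the normoxic arrays, and the lowest was array 1, which had the most stellate cell and biliary marker signal.

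Pck1, the entry enzyme of glucose synthesis, read 421.2 and 992.1 untreated, 256.6 and 735.9 adeno-treated and 87.8, 476.9 and 588.7 in hypoxia (log2 -0.85, limma adjusted p = 0.799; with the block -1.39, adjusted p = 0.00617). Within number 1 the difference was -1.85 and within number 2 it was -0.84. Of 7 gluconeogenesis genes 3 were lower with the block, at a median of -0.356, and none was called without it. Over all tested probe sets the block fit called 3.07% lower and 3.03% higher. Of 34 genes of phase 2 conjugation and detoxification 12 were lower and 1, Hmox1, higher with the block, at a median of -0.441, and none was called without it (-0.29). They include Gstt2, a glutathione transferase, and Gclm, a subunit of the enzyme that starts glutathione synthesis, which differed by -0.64 and -0.63 without the block (limma adjusted p = 0.191 and 0.345) and had adjusted p of 0.0094 and 0.0189 with it. The part of cell mixture in these differences was not tested.

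Mitochondrial and lipid genes followed the same split between the fits. With the block 4 of 35 respiratory chain genes, 3 of 18 tricarboxylic acid cycle genes and 4 of 22 fatty acid oxidation genes were lower and none higher, at medians of -0.211, -0.241 and -0.36. None was called without it, at -0.0813, -0.102 and -0.237. The block's shares over all tested probe sets were 3.07% lower and 3.03% higher. With the block 2 of 6 hepatocyte markers, Tat and Cps1, were also lower (median -0.194), while the median of the markers of stellate cells and fibroblasts was 0.58, and the part of cell mixture in the mitochondrial and lipid differences was not tested. Sdha, the succinate dehydrogenase subunit shared by the cycle and the chain, read 175.1 to 276.7 in normoxia and 99.8, 133.5 and 173.6 on hypoxic arrays 1, 2 and 3, the order of the summed hepatocyte markers (log2 -0.60, limma adjusted p = 0.440; with the block 0.0188). Plin2 read 4231 to 4795 and 3028 to 3362, with no overlap (log2 -0.52, limma adjusted p = 0.185; with the block 0.0384), and Fasn, the fatty acid synthase, 492.6 to 545.6 and 286.7 to 383.8 (log2 -0.62, limma adjusted p = 0.199; with the block 0.0263). Among 20 liver-enriched transcription factors, 6 were lower and 1 higher with the block. Cebpa, a factor of the mature hepatocyte, read 959.7 to 1351 in normoxia and 500.9 to 743.1 in hypoxia (log2 -0.84, limma adjusted p = 0.0919; with the block 0.00843), while its relative Cebpb read 1500 to 2349 and 2503 to 3141 (log2 0.56, limma adjusted p = 0.112; with the block 0.0123).

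Matrix genes were called only with the block. Of 31 collagen and matrix genes none was called without the block, at a median of 0.109, and 8 were higher with it, at 0.439. Over all tested probe sets 3.03% were higher with the block. The 15 stellate cell and fibroblast markers had medians of 0.109 and 0.58, with 5 higher with the block, and the lists share collagen members. Timp3, a tissue inhibitor of metalloproteinases, read 191.0 and 136.5 untreated, 169.4 and 84.4 adeno-treated and 448.7, 374.4 and 92.0 on hypoxic arrays 1, 2 and 3 (log2 0.83, limma adjusted p = 0.715; with the block 1.48, adjusted p = 0.00137). Its array 3 was within the normoxic range and arrays 1 and 2 above it, the order of the summed stellate cell markers. The part of cell mixture in the differences of Timp3 and the other matrix genes was not tested. Cd68, a macrophage marker, read 65.9 to 134.4 in normoxia and 127.5 to 225.0 in hypoxia, with overlap (log2 0.77, limma adjusted p = 0.293; with the block 0.0289). Of 9 tested macrophage markers it was the one called with the block.

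**Figure D3:**
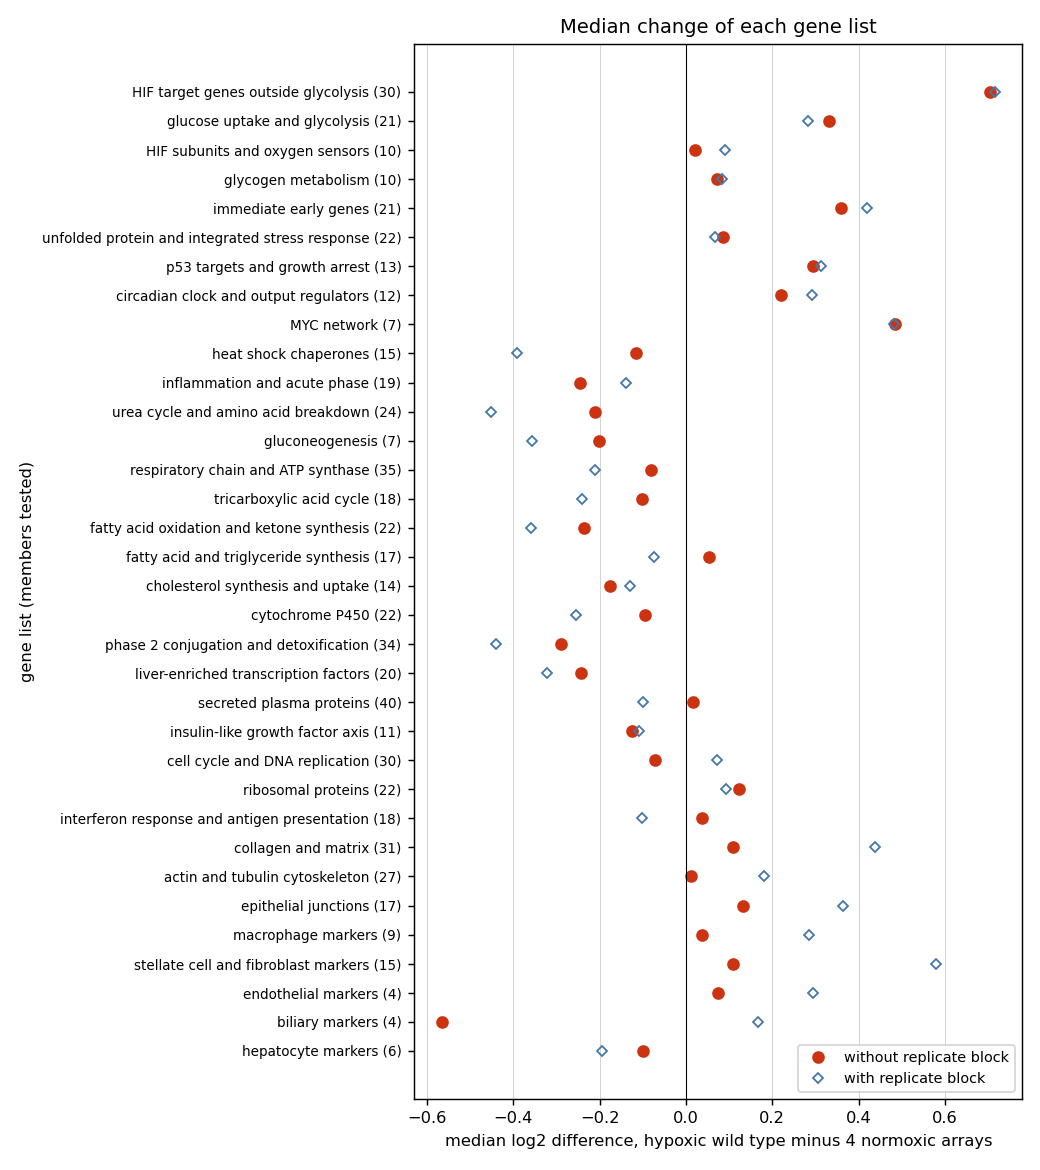
Median log2 difference between hypoxic wild-type and the 4 normoxic arrays (x axis) of the tested members of each gene list with 4 or more members tested (y axis), without (filled circles) and with (open diamonds) the replicate block. The HIF target list has the highest median without the block, 0.705, and the diamonds stand to the left of the circles for the urea cycle and detoxification lists and to the right for the matrix and stellate cell lists.

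Secreted liver products stayed near the general median. Of 40 secreted plasma protein genes none was called in either fit, at medians of 0.0172 without and -0.0987 with the block. Alb, albumin, read 8039 and 8366 untreated, 10967 and 13761 adeno-treated and 9436, 11481 and 12354 in hypoxia (log2 0.13, limma adjusted p = 0.798), with overlap. Its difference was -0.16 from the adeno-treated and 0.43 from the untreated arrays. No member was called in either fit of 22 ribosomal protein genes (median 0.124), 30 cell cycle and DNA replication genes (-0.0713) and 11 genes of the insulin-like growth factor axis (-0.125). Of 19 inflammation and acute phase genes, with a median of -0.245, none was called without the block. Cxcl1, a chemokine that draws neutrophils, read 69.5 to 189.9 in normoxia and 11.7 to 37.6 in hypoxia, with no overlap (log2 -2.03, limma adjusted p = 0.0664; with the block -1.77, adjusted p = 0.0094). All of its hypoxic values lay below 40.1, the mean that the filter asked for, so the size of this difference is not firm. The interferon-induced GTPase genes Ifi47 and Igtp, relatives of Irgm1, differed by -0.86 and -0.83 (limma adjusted p = 0.0664 and 0.402; with the block 0.0252 and 0.0257).

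**Figure D4:**
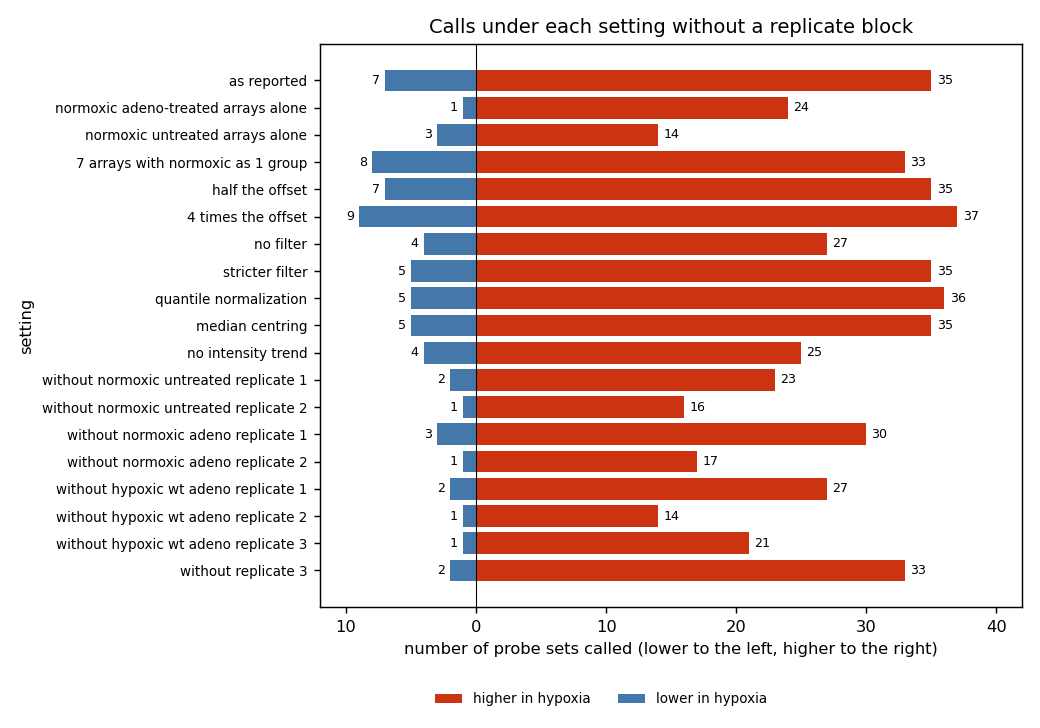
Number of probe sets called (x axis) higher (red, to the right) and lower (blue, to the left) in hypoxia under each setting without a replicate block (y axis). The reported fit called 35 and 7, and the fit without hypoxic array 2 called 14 and 1.

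The number of calls fell whenever 1 of the 7 arrays was left out. How much of this came from having fewer arrays was not tested. Leaving out hypoxic array 2 left 14 higher and 1 lower, leaving out untreated array 2 left 16 and 1, adeno-treated array 2 left 17 and 1, hypoxic array 3 left 21 and 1, and untreated array 1 left 23 and 2. Without hypoxic array 1 there were 27 higher and 2 lower and without adeno-treated array 1 there were 30 and 3, so the count of falls moved by over 1.5 times in every case. Of the 42 probe sets, 14 were called in all 7 of these fits. They were Adm, Slc2a1, Hk2, Ero1a, Fos, H2-Ab1, Pim1, both probe sets of Atf3 and of Ndrg1, and 99915_at, 104646_at and 103297_at, the last being the one fall. Atf4, Kdm3a, P4ha2, Zbtb2, Pdgfa, Fermt2, Hspa1b, Eef1akmt1 and Sgk1 were called in none of the 7, each keeping its direction. Other settings ended calls too. Quantile normalization ended Rusc1, Irgm1 and Eef1akmt1 (0.0517), and median centring ended Rusc1, Zbtb2, Eef1akmt1 (0.0611), Sgk1 (0.0721) and Pdgfa (0.0748). Without the filter Vegfa, F3, Sat1 (0.0503), Rusc1, Irgm1, Hspa1b (0.06), Eef1akmt1 (0.0867), Sgk1 (0.072), Atf4 (0.0682), Zbtb2, P4ha2 (0.0548) and Pdgfa (0.051) missed the threshold in limma's adjusted p. Without the intensity trend those lost were the same genes apart from Hspa1b, with Ralb (0.0586) and Fermt2 (0.0579) besides.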

How the data were processed

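The authors deposited 1 table of scaled intensity values for 10 arrays, and the labels name no software for it. The values had been scaled, since their mean without the top and bottom 2 percent was 199.6 to 200.0 on every array. For arrays, their number limits the precision. To each value 4.7 (the 10th percentile) was added and log2 taken. The 66 control probe sets and those below the 40th percentile of mean intensity (40.1) were left out, leaving 7453. The platform's annotation gives 1 symbol for 10855 probe sets, several for 396 and no symbol for 1237. Of the 10855 symbols 10839 matched RefSeq's GRCm38.p6 genes, used for names, and 16 did not. Of the 7453, 6722 carried 1 symbol, for 5689 genes.

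Probe sets were fitted with limma 3.58.1 in R 4.3.3 on the 4 group means of all 10 arrays (eBayes with an intensity trend, 2-sided, with 6 residual degrees of freedom). The contrast was hypoxic wild type minus the mean of the normoxic group means. The code was tested on simulated data. Gene lists (29 of pathways, 7 of cell type markers, 936 entries) were described by counts and medians, without a set test. Medians and signs used the brightest probe set per gene. A gene was counted as called if any of its tested probe sets was, as for P4ha2 and Pkp2, whose brighter probe sets were not called. Members and lists were chosen with earlier results of these data known. Named genes are called probe sets with 1 symbol and no overlap (the 24 largest rises and up to 16 falls, of which there were 6), the 6 with the widest gap between controls, those called against 1 control alone (4 a direction), up to 4 of smallest p per list, and 20 genes chosen for hypoxia or liver. Others, such as the smaller called rises and second probe sets, were named after their values were seen.

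The sample numbers were taken to pair the arrays because the deviations of all 13 same-number pairs of arrays from their group means correlated above 0.1 (0.103 to 0.677), against -0.514 to 0.253 for different numbers. Among the 7 arrays compared, the 6 same-number pairs gave 0.103 to 0.378, while normoxic number 2 arrays correlated with hypoxic array 3 (0.154 and 0.177) about as with hypoxic array 2 (0.103 and 0.173). In a group of 2 arrays the deviations are mirror images, so these correlations are not independent and the pairing remains an assumption. The replicate block fit had 4 residual degrees of freedom. Alternatives were each control alone, 7 arrays with normoxia as 1 group, other offsets (2.35 and 18.8), no filter, a 60th percentile filter, quantile normalization, median centring, no intensity trend and leaving out arrays. Block fits of 7 arrays or with an array left out were added after seeing the data.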

Additional observations from a re-analysis of the deposited data

Results flagged for a closer look

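Among the 44 probe sets examined, 1 had an array far from the others of its group. Epo read 24.6 on untreated array 1, against 41.5, 42.7 and 45.7 on the other normoxic arrays. After the offset was added and log2 taken, the gap to the nearest, divided by the group's range, was above Dixon's critical value for 4 arrays. On the scaled intensities themselves this ratio was below the critical value, so the flag depends on the scale. Chance alone flags about 1 in 20 groups, and Epo was not called in any fit reported.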

How the results depend on the processing

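Of the reported 35 rises and 7 falls, an offset of 2.35 gave 35 and 7, an offset of 18.8 gave 37 and 9, quantile normalization 36 and 5, median centring 35 and 5, the stricter filter 35 and 5, and the 7 arrays with normoxia as 1 group 33 and 8. No filter gave 27 and 4 and no intensity trend 25 and 4. The adeno-treated controls alone gave 24 and 1 (25 without overlap), the untreated 14 and 3 (17). Without replicate 3 of both hypoxic groups there were 33 and 2, with 24 of the 42 among them. Leaving out one of the 7 arrays gave 14 to 30 rises, 1 to 3 falls, and 15 to 33 calls without overlap and with both controls agreeing past 1.5-fold.

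With the replicate block the counts were 226 rises, 229 falls, 220 without overlap, 249 agreeing and 18 between the controls. Without replicate 3 they were 132, 111, 220, 186 and 3, and on 7 arrays without the null arrays 98, 73, 103, 147 and 4. Leaving out one of the 7 arrays with the block gave, in the same order, 59 to 151, 38 to 113, 58 to 213, 92 to 191 and 1 to 51. The block ended none of the 42 calls. The 7 arrays with normoxia as 1 group give no difference between controls.

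Of the named genes, differences near 0 changed sign. Epas1 was 0.22 against untreated arrays alone and -0.22 to 0.35 when an array was left out (-0.35 to 0.15 with the block). Pgk1 was -0.04 against adeno-treated arrays alone, -0.02 after quantile normalization and -0.14 to 0.16 when an array was left out (-0.12 to 0.16 with the block). Alb was -0.16 against adeno-treated arrays alone. Hif1a was -0.04 to 0.23 and -0.02 to 0.35 on its probe sets when an array was left out. The causes were not tested. With 3 against 4 arrays and a shared spread, small differences and dim probe sets are beyond the precision of these data.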
